A study of Mus musculus with 6 samples.

Results

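The 8 genes that write, maintain or remove 5-methylcytosine in mouse DNA, Tet1, Tet2, Tet3, Dnmt1, Dnmt3a, Dnmt3b, Dnmt3l and Uhrf1, were examined for SALL4 occupancy in mouse embryonic stem cells. They are 8 of the 21887 coding genes of the GRCm38.p6 gene table on assembled chromosomes. For each gene, all SALL4 intervals that overlapped the gene body or the 30 kb on either side of it were taken. This gave 58 of 55058 intervals in wild type replicate 1, 55 of 48295 in wild type replicate 2, and 0 of 34 and 0 of 39 in knockout replicates 1 and 2.

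The transcription factor SALL4 has clusters of zinc fingers and prefers short AT-rich DNA. Its sites were mapped by CUT&RUN, in which permeabilised cells are given an antibody, a nuclease is tethered to it, and the released DNA fragments are sequenced. A floxed line (genotype Sall4F/F), which the titles call WT and which stands for wild type here, was set against a Sall4-/- line, with 2 SALL4 libraries each. All cells were grown in 2i + LIF media. Each genotype is 1 line, and whether the libraries came from separate cultures is not stated in the labels. Peak lists carry no expression values, so neither the stem cell identity nor the expression of the 8 genes could be checked here.

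Methyl groups on cytosine are placed and removed by opposing enzymes. DNMT3A and DNMT3B methylate unmodified CG sites, DNMT3L lacks catalytic activity and stimulates both, and DNMT1 copies the pattern to the new strand after replication, guided by UHRF1, which recognises hemimethylated sites. TET1, TET2 and TET3 oxidise 5-methylcytosine to 5-hydroxymethylcytosine and further products, which leads to demethylation. In mouse embryonic stem cells TET1 and TET2 are the main oxidases, culture in 2i lowers DNA methylation, and SALL4 is reported to work with TET proteins at enhancers.

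The intervals were concentrated at Tet1 and Tet2. Tet1 held 23 and 24 intervals in wild type replicates 1 and 2, Tet2 held 19 and 15, and Tet3 held 6 and 6. Dnmt3b held 4 and 4, Uhrf1 held 4 and 3, Dnmt3a held 1 and 2, Dnmt3l held 1 and 1, and Dnmt1 held 0 and 0. An interval of replicate 1 was thus present at 7 of the 8 genes, against 66.5% of coding genes, and one of replicate 2 at 7, against 63.2%. These shares are over all coding genes, whatever the length of their windows. Both knockout lists held 0 at each of the 8 genes, so at 7 of them the wild-type and knockout counts did not overlap, against 60.1% of all coding genes. Over the 8 windows the count was 56.5 ± 2.12 intervals (SD, n = 2) in wild type and 0 in both knockout libraries. The difference was 5.84 in log2(intervals + 1), against an SD of 0.0532 between the wild-type libraries. An exact permutation test over the 4 libraries (two-sided) gave p = 0.333, the smallest p that 2 libraries against 2 can give. All 8 genes lie on autosomes, where the knockout lists hold 0 intervals anywhere, and 0.00914% of coding genes had a knockout interval in their window. The zeros at these genes are therefore shared with every autosomal gene. The lists differ in their weakest interval, whose −log10 p was 3.55 and 3.60 for the wild-type replicates but 7.63 and 7.12 for those of the knockout. With −log10 p required to reach 8 in every list, 24 regions at these genes were shared by the wild-type lists and 6 of the 8 genes had one, against 44.1% of coding genes. The knockout counts were 0 without this filter, so it could not change them.

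**Figure D1:**
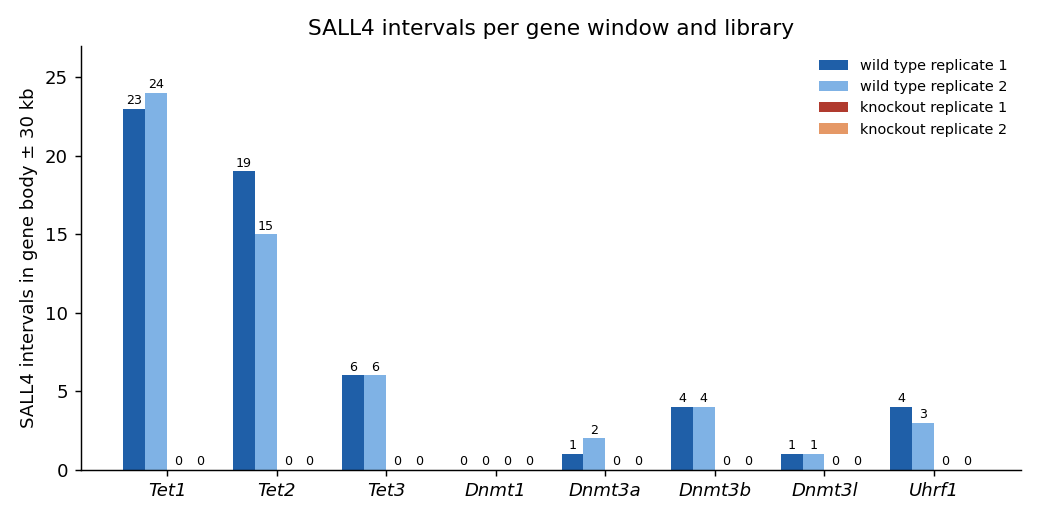
Number of SALL4 intervals (vertical axis) overlapping each gene body or the 30 kb on either side, by library, with each count printed above its bar. Wild-type counts reach 23 and 24 at Tet1 and are 0 at Dnmt1, and all knockout counts are 0.

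Because each wild-type list was called on its own, an interval counted as found again when the other list overlapped it by 1 bp or more. Of the intervals in the 8 windows, replicate 2 held 49 of the 58 of replicate 1, or 84.5% (73.1 to 91.6, 95% Wilson). Replicate 1 held 47 of the 55 of replicate 2, or 85.5% (73.8 to 92.4). Over the whole lists these shares were 70.4% and 79.3%, and the ranges cover counting error only. The 9 and 8 intervals present in 1 list were weaker, with median fold enrichments over the local background of 4.82 and 4.37 against 7.11 and 6.12 for those found in both, and rested on a median of 6 fragments at the summit in each list. Intervals of both wild-type lists that overlapped each other and no knockout interval were joined into consensus regions. The 8 windows held 47 of the 37997 consensus regions, namely 40 at the TET genes, 5 at the DNMT genes and 2 at Uhrf1. The TET windows span 439.2 kb and the DNMT windows 465.3 kb, which gives 0.911 and 0.107 consensus regions per 10 kb. Tet1 and Tet2 held 34 of the 40 TET regions. Tet3 alone had 0.388 per 10 kb, near Dnmt3b with 0.305. At least 1 consensus region was present at 7 of the 8 genes, against 58.4% of coding genes, and the median was 0.277 per 10 kb over the 8 genes against 0.111 over coding genes. The 58.4% is not matched for window length. Of the 4706 coding genes with a window at least as long as that of Dnmt1, 19.0% had 0 consensus regions. Tet1, Tet2, Tet3 and Dnmt3a have windows of that length. No test was made of these counts, since the genes were proposed with results of these data known.

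Tet1 (gene ID 52463, chromosome 10, 62804570 to 62887469, minus strand, GRCm38) had the most consensus regions of the 8 genes, 19, or 1.33 per 10 kb. As high a density was reached by 0.749% of coding genes. The order of Tet1 and Tet2 turned in gene bodies alone, with 8 and 11, and among intervals whose fold enrichment reached 10, with 2 and 3. With 10 kb on either side both had 12. The regions fell on both sides of the Tet1 start. In the 30 kb before the gene lay 9 of them, a number that 0.246% of the 17492 coding genes with a known strand reached. A further 8 lay inside Tet1 and 2 beyond its end, in Ccar1. All 9 upstream regions fell within Gm51805, a long non-coding RNA gene that overlaps the 5′ part of Tet1. A run of 6 of them filled 7.67 kb, from 62892880 to 62900549, with mean fold enrichments from 5.41 to 15.7. Regions of a gene were ordered by the weaker of their ranks in the 2 lists. The strongest Tet1 region was in this run, at 62897964 to 62898661, 11.1 kb before the annotated start. Its fold enrichment was 15.0 in replicate 1 and 16.5 in replicate 2, with 24 and 27 fragments at the summit. The next by this order lay 21.9 kb before the start, at 62909106 to 62909342, with fold enrichments of 12.3 and 10.8. Inside the gene all 8 regions lay between 24.4 and 43.6 kb from the 5′ end, and the strongest of these, at 62853488 to 62853730, had fold enrichments of 11.0 and 8.84. The region at 62892880 to 62893615 had fold enrichments of 15.8 and 8.94, with summits 489 bp apart.

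Tet2 (gene ID 214133, chromosome 3, 133463677 to 133545136, minus strand) had 15 consensus regions, or 1.06 per 10 kb, a density that 1.66% of coding genes reached. Its layout differed from that of Tet1, with 11 regions inside the gene, 2 before it and 2 beyond its end. No other annotated gene lies in its window. A stretch of 18.9 kb inside the gene, 10 to 30 kb from its 5′ end, held 9 of the 11. This stretch contains the strongest region of all 8 genes, at 133524126 to 133525302, 1177 bp wide and 19.6 kb after the annotated start. It had fold enrichments of 23.4 and 27.1 with 45 fragments at the summit in each replicate, ranked 1272 of the replicate 1 list and 481 of the replicate 2 list. A further region 10.1 kb after the start, at 133533999 to 133534504, reached fold enrichments of 17.6 and 12.0. The other strong Tet2 region lay in no annotated gene beyond the 3′ end, at 133438055 to 133438518, with fold enrichments of 17.2 and 16.3. Weak regions were also frequent at Tet2: 3 had a fold enrichment of 3.44 in replicate 1, on 4 fragments.

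Tet3 (gene ID 194388, chromosome 6, 83362373 to 83457208, minus strand) had 6 consensus regions, and every interval in its window was found in both lists. With 0.388 per 10 kb it lay above the median of coding genes, and 15.8% of them were as dense. Inside the gene lay 4 regions and before it 2. The strongest, at 83437271 to 83437615, reached fold enrichments of 14.9 and 15.3, 4.19 kb after the annotated start, which is itself 15.5 kb inside the gene. Next came 83467802 to 83468173, before the gene and in no annotated gene, with fold enrichments of 13.3 and 11.3.

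**Figure D2:**
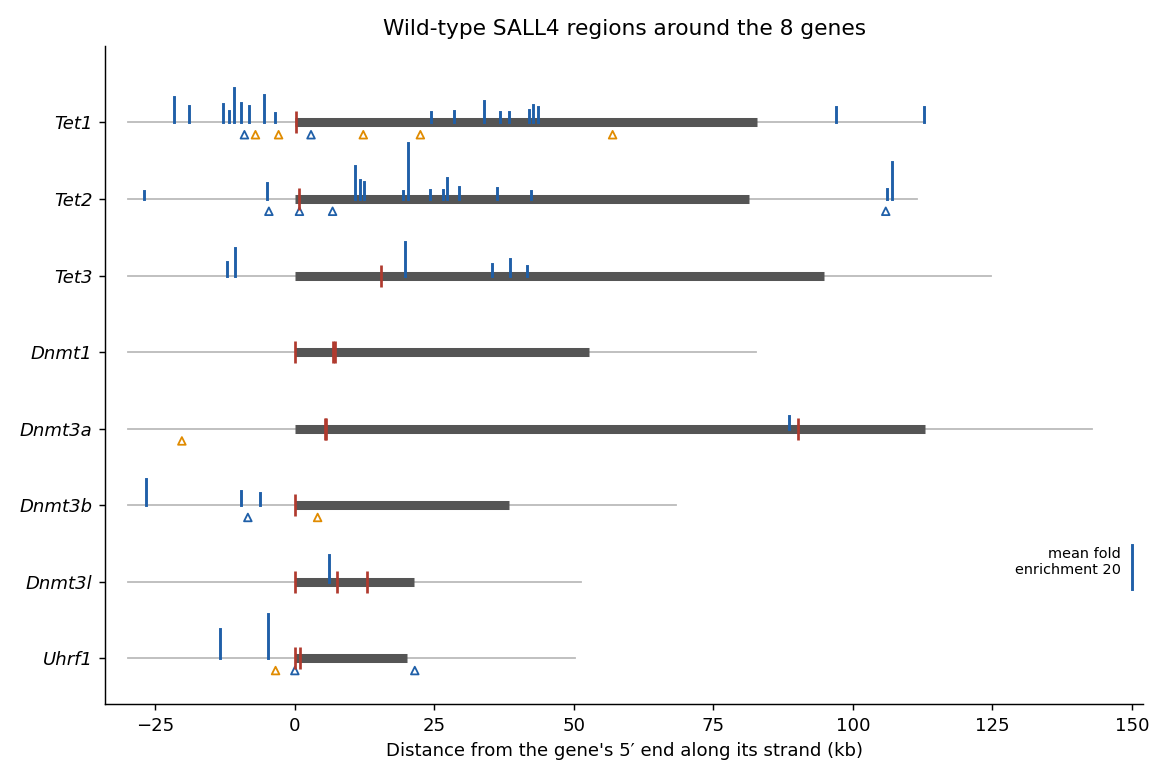
Wild-type SALL4 regions by distance in kb from the 5′ end of each gene, along its strand. Thick bars are gene bodies, thin lines the 30 kb on either side, red ticks the annotated starts, vertical blue lines consensus regions with a height proportional to the mean fold enrichment of both lists, and open triangles intervals present in replicate 1 only (blue) or replicate 2 only (orange). The 19 Tet1 regions flank its start, 11 of the 15 Tet2 regions lie inside the gene, and Dnmt1 has none.

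The de novo methyltransferase genes and Dnmt3l held fewer regions than Tet1, Tet2 and Tet3, and of them Dnmt3a alone was below the median density of coding genes. With 50 kb on either side Dnmt3b drew level with Tet3, at 6 regions each. Dnmt3a (gene ID 13435, chromosome 12, 3801559 to 3914443, plus strand) had 1 consensus region in a window of 172.9 kb, at 3889984 to 3890326, a density that 56.5% of coding genes reached. Its summit was 1.59 kb before the third annotated start, which is 90.2 kb inside the gene, and the same bases belong to Gm31623, a long non-coding RNA gene. As background, a shorter Dnmt3a isoform that starts at an internal promoter is the main form in embryonic stem cells. The table used here does not say which isoform begins at this start. Both replicates had 14 fragments at the summit, but the fold enrichments of 3.84 and 7.54 differed, and no region was left when −log10 p had to reach 8 in every list. The window also held an interval of replicate 2 alone, in Dtnb, so replicate 2 by itself would count 2 regions.

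Dnmt3b (gene ID 13436, chromosome 2, 153649411 to 153687730, plus strand) had 3 consensus regions, all before the gene and none inside it. As high a density, 0.305 per 10 kb, was found at 21.6% of coding genes, and as many upstream regions at 7.25%. They lay 26.7, 9.64 and 6.22 kb before the annotated start. The farthest was the strongest, at 153622497 to 153622806 in Commd7, with fold enrichments of 11.2 and 12.5. Inside Dnmt3b the lists held 1 interval, of replicate 2 alone, with a fold enrichment of 5.34.

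Dnmt3l (gene ID 54427, chromosome 10, 78042287 to 78063622, plus strand) had 1 consensus region, at 78048137 to 78048523, and 47.3% of coding genes were as dense. It lay inside the gene, 1.53 kb before the second of 3 annotated starts, and had fold enrichments of 13.1 and 10.9, stronger than 88.1% and 83.9% of the 2 lists. The summits of the replicates were 110 bp apart, so the region was lost where summits had to lie within 100 bp.

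The genes of maintenance methylation differed from each other. Dnmt1 (gene ID 13433, chromosome 9, 20907206 to 20959888, minus strand) had no interval of any list in 112.7 kb. Of the 4706 coding genes with a window at least as long, 11.1% had 0 intervals in both wild-type lists. The nearest consensus region to Dnmt1 lay 40.8 kb from the gene, at 21000688 to 21001067, with fold enrichments of 6.89 and 8.84. The lists hold only intervals past the authors' threshold, so weaker occupancy at Dnmt1 was not detectable from them.

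Uhrf1 (gene ID 18140, chromosome 17, 56303337 to 56323486, plus strand) had 2 consensus regions, both before the gene and inside neighbouring genes, and 27.3% of coding genes were as dense. The one in Arrdc5, at 56298276 to 56298670 and 4.90 kb before the first annotated start, was the second strongest over all 8 genes. Its fold enrichments were 20.7 and 19.7, with 29 and 28 fragments at the summit, and it ranked 1905 and 1710 in the 2 lists. The one in Plin3, at 56289686 to 56290124, had fold enrichments of 10.7 and 15.6. With replicate 1 alone Uhrf1 would count 4 regions.

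In strength these regions ran from weak to strong, the lowest (Tet2, 133572151 to 133572454) stronger than 1.6% of the replicate 1 list and the highest (Tet2, 133524126 to 133525302) stronger than 97.7% of it. The mean fold enrichment of both replicates ran from 3.42 to 25.2 with a median of 7.20, against 6.84 over all consensus regions. In both lists 5 of the 47 ranked among the strongest 10%, as did 10.7% of all consensus regions. Ordered by their weaker rank they lead all 47: they are the 2 named Tet2 regions at 133524126 (mean 25.2 ± 2.62, SD, n = 2) and 133438055 (16.8 ± 0.636), that of Uhrf1 in Arrdc5 (20.2 ± 0.667), that of Tet1 in the upstream run (15.7 ± 1.08) and that of Tet3 at 83437271 (15.1 ± 0.332). Across the 47 regions Spearman's rho between the fold enrichments of the replicates was 0.780, against 0.771 across all consensus regions. These points are sites of the same 2 libraries, not replicates. The summits of 37 of the 47 regions lay within 100 bp of each other in the 2 lists.

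**Figure D3:**
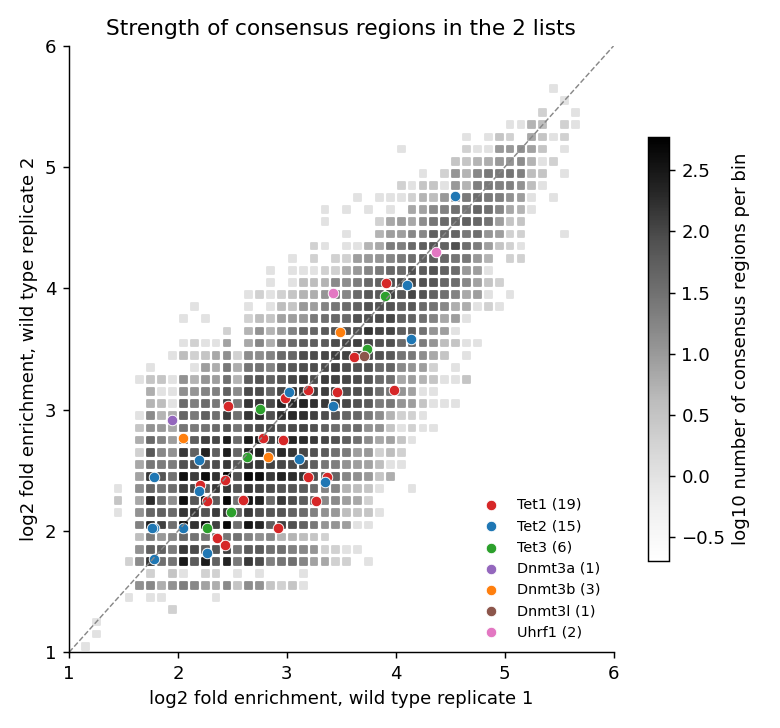
Fold enrichment of consensus regions in wild type replicate 1 (horizontal axis) and replicate 2 (vertical axis), both on a log2 scale. Grey squares are bins shaded by the log10 number of consensus regions, coloured points are the 47 regions of the 8 genes, and the dashed line marks equal values. The Tet2 region with fold enrichments of 23.4 and 27.1 is the highest coloured point.

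No member gene had an interval of both wild-type lists within 1 kb of an annotated start, which 6.85% of the 17492 coding genes with a start in the RefSeq promoter table had. All 8 genes have starts in that table, 15 in all. Replicate 1 had an interval there at 2 of the genes, Tet2 and Uhrf1, against 9.91% of coding genes, and replicate 2 had none, against 8.51%. Of coding genes, 3.06% had one of replicate 1 and none of replicate 2, as these 2 did. At Uhrf1 it lay at 56303273 to 56303371, from 64 bases before the first start to 34 after it, with a fold enrichment of 4.13 on 5 fragments. At Tet2 it lay at 133544268 to 133544381, from 9 to 122 bases after the start, with a fold enrichment of 5.08 on 9 fragments. The nearest consensus summit lay 1.53 kb from a start at Dnmt3l, 1.59 kb at Dnmt3a, 3.77 kb at Tet1, 4.19 kb at Tet3, 4.90 kb at Uhrf1, 5.84 kb at Tet2, 6.22 kb at Dnmt3b and 41.0 kb at Dnmt1. Over coding genes the median was 31.3 kb, so at 7 of the 8 genes SALL4 regions lay closer to a start than at the median gene without covering it.

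The bases before 5 of these starts show what the starts look like. They come from the RefSeq promoter table of build GRCm38.p6 and are written 5′ to 3′ along the gene's strand. The start of Uhrf1 (chr17:56303087-56303336, plus strand) is shown because replicate 1 had an interval there, and the 64 capitals are the bases under it. The start of Tet2 (chr3:133544391-133544640, minus strand) is shown because a replicate 1 interval begins just after it. The starts of Dnmt3a, number 3 along the gene (chr12:3891494-3891743, plus strand), and Dnmt3l, number 2 (chr10:78049592-78049841, plus strand), are shown because consensus regions lie nearest to them. Capitals in these 3 mark CG dinucleotides, the sites that DNMT enzymes methylate. The 25 bases from before Dnmt1 start number 3 (chr9:20952643-20952667, minus strand) come from the only promoter window of the 8 genes with ATATT, in capitals, which begins 34 bases before that start.
Uhrf1: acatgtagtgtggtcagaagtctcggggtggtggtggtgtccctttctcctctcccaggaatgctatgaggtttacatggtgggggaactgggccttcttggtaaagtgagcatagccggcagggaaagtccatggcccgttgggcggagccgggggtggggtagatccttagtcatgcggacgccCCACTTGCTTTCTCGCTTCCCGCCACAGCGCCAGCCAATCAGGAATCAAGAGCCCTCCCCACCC
Tet2: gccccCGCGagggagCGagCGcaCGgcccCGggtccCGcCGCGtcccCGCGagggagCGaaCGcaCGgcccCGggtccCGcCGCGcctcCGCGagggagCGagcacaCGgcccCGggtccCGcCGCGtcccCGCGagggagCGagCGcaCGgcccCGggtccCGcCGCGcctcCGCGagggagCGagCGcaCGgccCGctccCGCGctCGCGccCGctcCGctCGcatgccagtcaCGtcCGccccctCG
Dnmt3a: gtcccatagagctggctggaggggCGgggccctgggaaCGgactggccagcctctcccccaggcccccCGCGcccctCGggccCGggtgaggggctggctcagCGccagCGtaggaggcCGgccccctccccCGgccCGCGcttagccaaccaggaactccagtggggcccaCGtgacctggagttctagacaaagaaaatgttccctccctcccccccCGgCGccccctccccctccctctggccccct
Dnmt3l: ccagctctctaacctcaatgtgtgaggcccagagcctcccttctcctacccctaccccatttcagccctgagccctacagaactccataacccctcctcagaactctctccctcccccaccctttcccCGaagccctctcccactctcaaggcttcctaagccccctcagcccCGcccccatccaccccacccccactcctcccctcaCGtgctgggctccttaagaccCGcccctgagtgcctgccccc
Dnmt1: gccgaggcatATATTgggggtatct
The 250 bases before the start hold 51 CG dinucleotides at Tet2, 15 at Dnmt3a, 10 at Uhrf1 and 4 at Dnmt3l, and their A+T content is 16.4%, 26.4%, 40.4% and 36.0%.

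The AT-rich motifs ATATT and AATATT, which contains it, were searched on both strands of the 300-base promoter windows (250 bases before the start and 50 after). ATATT was present in 1 of the 15 windows of the 8 genes, against 25.3% of all 32851 windows, and AATATT in 0, against 6.81%. The A+T content of the 15 windows ranged from 17.7% to 48.7% with a median of 31.7%, and in 14 of them it was below the median of all windows, 47.3%. Among the 1025 windows under a consensus region, 26.7% held ATATT and 5.37% held AATATT, with a median A+T content of 47.7%. A match is a string of letters and not a binding site, and none of the 15 windows lies under a consensus region. No genome sequence was used here, so the consensus regions of these genes were not searched.

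A wider list of 28 genes of DNA methylation was read the same way. It holds readers of methylated DNA (such as Mbd1 and Mbd2), repair enzymes that remove oxidised bases (such as Tdg), enzymes that supply or modify the TET proteins (Idh1, Idh2, Ogt) and partners of UHRF1 and DNMT1 (such as Usp7, Pcna and Dppa3). A consensus region was present at 24 of the 28 genes, which is 85.7% against the 58.4% of coding genes, and the median was 0.314 per 10 kb. Both knockout lists held 0 intervals at all 28. The densest was Zfp57, whose product maintains methylation at imprinted loci, with 18 and 19 intervals in the replicates and 15 consensus regions, or 2.16 per 10 kb. Usp7, which encodes a deubiquitinase that binds UHRF1 and DNMT1, had 22 and 20 intervals and 15 consensus regions, or 1.17 per 10 kb. Ogt, which encodes the O-GlcNAc transferase that binds TET proteins, had 15 and 15 intervals and 12 consensus regions, or 1.15 per 10 kb. Of the list, 1 gene was denser than Tet1 and 3 were denser than Tet2. Consensus regions were absent at Mbd1, Mbd3, Smug1 and Cxxc4. Of these, Mbd1 and Mbd3 had 1 interval in replicate 2, Smug1 had 2 in replicate 1, and Cxxc4, which encodes a CG-binding partner of TET2, had 0 in both. An interval of both wild-type lists lay within 1 kb of a start at 3 of the 23 listed genes with a start in the promoter table, namely Uhrf2, Zfp57 and Ogt, against 6.85% of coding genes with a start. These genes were named after their values were seen. The windows of Apobec1 and Dppa3 overlap, so these genes share intervals.

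**Figure D4:**
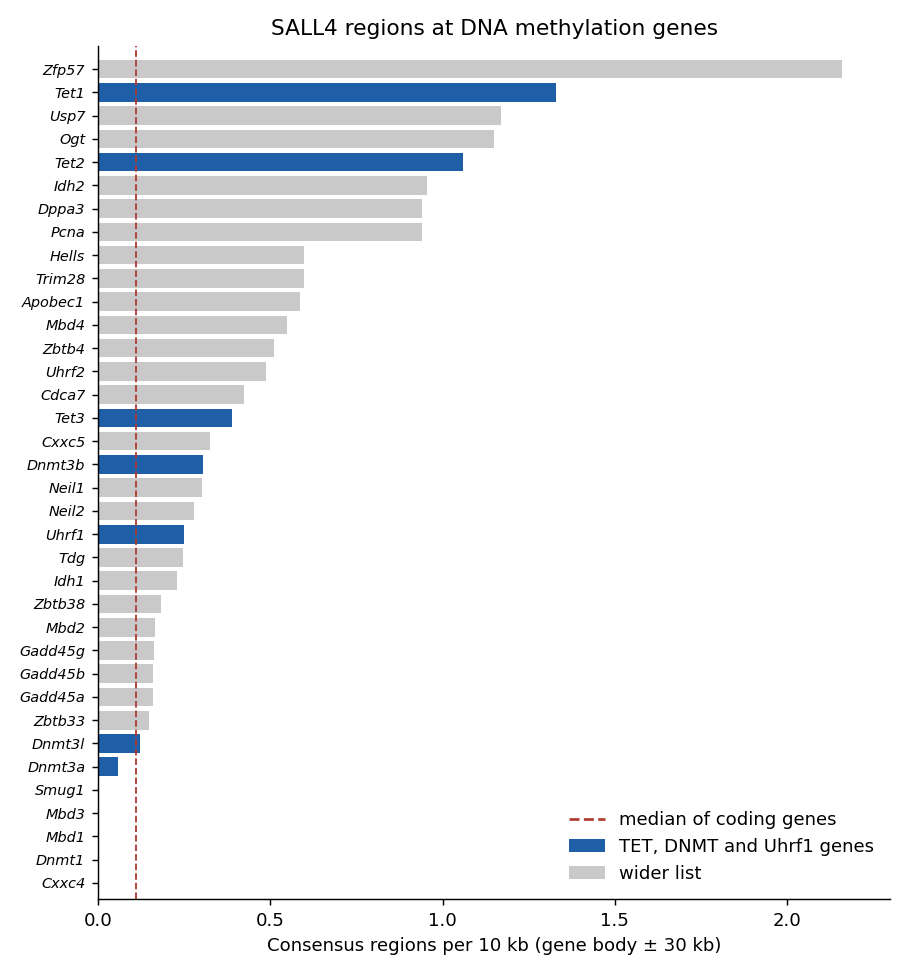
Consensus regions per 10 kb of gene body plus 30 kb on either side (horizontal axis), for the 8 genes (blue) and the 28 genes of the wider list (grey), with the median of all coding genes, 0.111, as a dashed line. Tet1 (1.33) and Tet2 (1.06) are among the 5 densest, and of the 8 genes Dnmt3a (0.0578) and Dnmt1 (0) lie below the line.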

How the data were processed

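SALL4 peak lists of 2 wild-type and 2 knockout CUT&RUN libraries were used. The 2 IgG samples were not analysed here. Groups and replicate numbers come from the sample titles. Trim Galore 0.6.0, cutadapt 1.18, FastQC 0.11.8, BWA 0.7.17, MACS2 2.1.1.20160309 and GRCm38 (mm10) are named per the submitters' processing notes. Settings, filters and the control are not given in the sources used here. The authors called 1 list per library. In these deposited lists the score equals 10 times −log10 q, cut to a whole number. Fold enrichment, a ratio of pileup to local background, was deposited for each summit together with its p-value and q-value as −log10. Fold enrichments are scaled per list, so they were used within lists, and a mean over both is a description.

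Overlapping lines of a list were merged, keeping the highest fold enrichment. The fold enrichment (pseudocount 1) and the Poisson p-value together returned whole fragment numbers in 100% of lines, within 0.0001 in −log10 p. Wild-type summits held a median of 9 fragments in either list and at least 4. The total of fragments per library is unknown. The weakest −log10 p differed between the genotypes, so a common threshold was an alternative. Window counts, consensus building and pileup recovery were tested on simulated data.

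Gene positions and names came from the RefSeq gene table of GRCm38.p6, and strands and starts from its promoter table, which covers 17492 of 21887 coding genes. Exons were not used here. Percentages of coding genes count genes whose own window, gene body plus 30 kb, reached the value. They are not matched for window length unless stated. Positions are counted from 1. A region was placed by its replicate 1 summit. Percentiles, ranks and Wilson intervals are descriptions. The test made is an exact permutation test over the libraries, two-sided, with an exact sign-flip test over replicate numbers as its alternative. The p-values are the smallest that these numbers of libraries allow, so they do not measure the spread between these samples, which may be technical.

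The members and lists were chosen with earlier results of these data known. The sites named are, by rule, the best region of each gene by the lower of its 2 ranks, intervals within 1 kb of a start, the 5 best regions over all genes, and from the wider list the 3 densest genes and those with none. The printed starts of Dnmt3a, Dnmt3l and Dnmt1, the Tet1 and Tet2 runs, the other regions given by position and the intervals of replicate 2 alone in Dtnb and Dnmt3b were named after their values were seen. Of the wider list as first fixed, 2 genes are not reported here and enter no count. As no genome was used, the planned A+T content and motifs of 300 bases around summits, and their alternative of 100 bases, were replaced by the promoter windows. Python 3.11.15, numpy 2.4.6, pandas 2.3.3, scipy 1.17.1 and matplotlib 3.10.9 were used.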

Additional observations from a re-analysis of the deposited data

How the results depend on the processing

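The knockout lists hold no autosomal interval, so no alternative could turn the genotype difference at these genes, and its sign says nothing about stability. The log2 difference ranged from 5.807 to 5.883 with 1 library left out. Over the other windows and thresholds it ranged from 3.836, at a fold enrichment of at least 10, to 6.108, with 50 kb on either side. As the knockout count is 0, the difference follows the wild-type count alone. The labels share replicate numbers between the genotypes, and with the replicate number as a block the difference was 5.845 (exact sign-flip p = 0.5, the smallest that 2 pairs allow). With 1 value per library, the pairing itself was not tested. The 47 consensus regions fell to 25 in gene bodies alone, 16 at a −log10 q of at least 10, 11 at a fold enrichment of at least 10 and 24 at a −log10 p of at least 8. All of these settings admit fewer bases or intervals by construction. With a knockout library left out the count was 47, which could not differ. Without wild type replicate 1 it was 55 and without replicate 2 it was 58. These are all intervals of the remaining wild-type list, with no agreement between lists required. Tet1 and Tet2 held the highest 2 counts in all 12 settings, with ties at the strict fold enrichment, and Tet1 was highest, or level with Tet2, in 10. Dnmt1 had 0 in 11, the exception being 50 kb on either side, with 1 region. Those 11 counts could not differ from 0, since no list held an interval in the reported Dnmt1 window, so they say nothing about stability. The mean share of intervals found in the other replicate, 84.97%, was 86.2%, 81.7% and 86.8% with 0, 10 and 50 kb on either side, 80.8% at the strict q-value, 80.4% at the common p-value, 70.85% with a reciprocal overlap of 50% and 67.3% with summits within 100 bp. The mean of the 2 lists' median percentiles of fold enrichment, 50.5, was 41.1 with 0 kb, 41.1 with 10 kb, 54.35 with 50 kb, 44.1 at the strict q-value and 57.6 at the common p-value, and the cause was not tested. Genes with an interval of both lists at a start were 0 but 2 of 8 within 3 kb, Dnmt3a and Dnmt3l, against 13.6% of coding genes, and 0 to 2 with 1 library left out. Without wild type replicate 2 they were Tet2 and Uhrf1. The 24 of 28 genes of the wider list were 11 in gene bodies alone (39.3%, against 27.6% of coding genes), 13 at the strict q-value (46.4% against 31.1%) and 10 at the strict fold enrichment (35.7% against 24%). Of the 96 single-gene counts under alternatives, 71 were within 1.5 times the reported count. These include counts that could not differ, namely those without a knockout library and most of those at Dnmt1. Leaving out wild type replicate 1 gave 2 regions at Dnmt3a in place of 1, and leaving out replicate 2 gave 4 at Uhrf1 in place of 2. The intervals at these genes rest on 4 to 45 fragments at the summit, with a median of 9 in each wild-type list, which limits the weakest calls.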
